A study of Mus musculus with 33 samples.

Results

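The cecum epithelium of old and young mice was compared over all cells of the 11 cecum libraries, 9971 of the 23762 cells in the 33 libraries of the study. Members were chosen by compartment alone: every deposited cell of every cecum library entered, 5467 from 5 young and 4504 from 6 old mice, with no cell left out and no cell classes formed. All mice were female wild-type C57BL6/J animals kept under specific pathogen-free conditions with no treatment or altered allele named. The young mice were aged 8 weeks (1 mouse), 12 weeks (3 mice) and 20 weeks (1 mouse), and the old mice 90 weeks (2 mice), 92 weeks (1 mouse) and 108 weeks (3 mice), an age that the labels give per group and not per mouse. Crypts were dissociated, cells were stained for EpCAM and with hashtag antibodies, EpCAM-positive cells were sorted, and 10000 cells per compartment were loaded for droplet sequencing of transcript 3' ends.

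The cecum is the pouch at the start of the large bowel where microbes ferment what the small bowel has not absorbed. Its epithelium is folded into crypts, where stem cells at the base give rise to absorptive colonocytes, mucus-making goblet cells, hormone-making enteroendocrine cells and tuft cells. This layer is renewed continually, holds microbes at a distance with mucus and antimicrobial proteins, and takes up water, salts and short-chain fatty acids.

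The libraries differed in size and depth, and each result was read against this. They held from 46 cells (Old 3) to 3403 cells (Young 5) and from 1395412 to 18955289 UMIs, a UMI being 1 counted transcript molecule. Mice 1 to 3 of both ages had a median of 32321 to 42286 UMIs per cell, and mice 4 to 6 a median of 4401 to 12785.5, and these are called the deeper and the shallower set. The labels name 2 kit versions and do not tie them to mice, so depth and kit cannot be told apart. The first principal component (42.6% of the variance) separated the sets, both ages were present in each, and the set was a term in the test of age in the cecum that the calls below rest on. The mitochondrial share had a median of 1.83% in Young 5 and of 5.05% to 8.24% in the other libraries. Pairs of libraries shared at most 7 cell barcodes. Epcam, which encodes the antigen of the sort, was at 2104 to 2386 CPM (UMIs of the gene scaled to a common library total of 1000000) in young and 1565 to 2330 CPM in old libraries.

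Of 11793 genes tested, 6 differed with age at an adjusted p below 0.05 (0.0509%), 3 higher in old mice (0.0254%) and 3 lower (0.0254%). The genes lower in old cecum were Bex4, Eid2 and 2410018L13Rik, and the genes higher were Dmrta2, Wnt5a and Parp3. Adjusted p-values are from edgeR's quasi-likelihood test with Benjamini-Hochberg adjustment over all genes tested, on UMIs summed per mouse. At an unadjusted p below 0.05 there were 446 genes (3.78%), 242 higher (2.05%) and 204 lower (1.73%), and the median log2 change over all genes tested was 0.00. Old and young mice did not overlap in CPM for 41 genes (0.348%), with all old mice above for 22 (0.187%) and below for 19 (0.161%), and 131 genes (1.11%) separated the ages in 1 direction within each set. The 3.78% is below the share of 0.05 that this threshold passes where no gene differs. How many genes would separate the ages without any age difference was not computed, so these shares only describe the data. The count of 6 calls rested on single libraries: it was 0 without Young 4 or without Old 6, 1 without Old 4, 3 without Young 1 or without Young 3, and 9 without Old 3, with 456, 449, 378, 526, 369 and 565 genes at an unadjusted p below 0.05 in that order. With the same terms limma voom called 17 genes and DESeq2 47, and both called all 6. In such sums fewer cells of a type and less RNA per cell cannot be told apart.

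Bex4 encodes a small protein of the brain-expressed X-linked family. It stood at 7.37, 6.32, 12.0, 28.0 and 10.9 CPM in Young 1 to 5, and at 0 to 2.71 CPM in the old mice with a median of 1.80. Every old mouse was below every young mouse, in both sets, and Young 4 was far above the other young mice. The log2 change was −3.11 ± 0.36 (SE, 5 young and 6 old mice, adjusted p = 0.00671), with −2.90 in the deeper and −3.21 in the shallower set. The counts behind it were 26, 50, 81, 463 and 163 UMIs in the young and 0, 15, 4, 25, 17 and 29 UMIs in the old libraries. The gene lies at chrX:136138996-136140443 on the plus strand (GRCm38). Of the 50-base stretches of its transcripts, 49.7% also occur in those of Bex1, Gm12245 or Gm4322, so its reads could be split between copies. The call was lost without Young 4, Old 4 or Old 6 (adjusted p up to 0.0844), where the log2 change kept its sign.

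Eid2 encodes an EP300-interacting inhibitor of differentiation, a repressor of transcription. Its levels in Young 1 to 5 were 2.27, 1.52, 2.96, 1.81 and 1.47 CPM, against 0 to 0.224 CPM in the old mice with a median of 0.0584. The groups did not overlap in either set. The fitted log2 change was −2.79 ± 0.32 (adjusted p = 0.00671), at −2.91 in the deeper and −2.65 in the shallower set. The old libraries held 0, 1, 0, 3, 1 and 1 UMIs and the young libraries 8, 12, 20, 30 and 22, so the old level was near that of single molecules. Eid2 lies at chr7:28267881-28269272 on the plus strand, and none of its 50-base stretches occurs in another annotated transcript. The call was lost without Young 4 or without Old 6.

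The lincRNA 2410018L13Rik was also at low counts. The young levels were 2.27, 2.02, 2.07, 1.81 and 1.47 CPM and the old levels 0 to 0.688 CPM (median 0.302). Old and young mice did not overlap, with a log2 change of −1.82 ± 0.27 (adjusted p = 0.0356). Its locus is chr12:22953997-23010284 on the minus strand. Of the 50-base stretches of its transcripts, 47.0% also occur in transcripts of 62 other genes, so this gene is uncertain. The call held in 2 of the 11 analyses that each left out a library (without Old 2 and without Old 3).

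Dmrta2 encodes a DM-domain transcription factor. It was at 0, 0.379, 0.443, 0.181 and 0.201 CPM in Young 1 to 5 and at 1.60 to 4.57 CPM in the old mice, with a median of 2.59. Each old mouse was above each young mouse in both sets. The log2 change was 2.75 ± 0.37 (adjusted p = 0.0209), with 2.35 in the deeper and 3.16 in the shallower set. The young libraries held 0 or 3 UMIs each, and the old libraries 15, 28, 4, 33, 27 and 39. The gene lies at chr4:109978053-109983687. The call was lost without Young 4, Young 5, Old 4 or Old 6.

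Wnt5a encodes a secreted Wnt ligand that acts mainly outside the beta-catenin branch. It was at 3.68, 2.53, 3.25, 1.39 and 1.61 CPM in Young 1 to 5, and at 8.22, 8.60 and 14.9 CPM in Old 1 to 3 and 4.34, 3.19 and 3.75 CPM in Old 4 to 6. Over all 11 mice the groups overlapped, with Old 5 within the young range, and within each set they did not, both ages being higher in the deeper set. The log2 change was 1.44 ± 0.20 (adjusted p = 0.0256), at 1.60 in the deeper and 1.25 in the shallower set. Stromal cells are known as a source of this ligand, and the 13 stromal markers in the files summed to 2.78 to 11.3 CPM in young and 3.09 to 9.12 CPM in old libraries. Of these, Col1a2, Dcn, Pdgfra and Myh11 were at 0 UMIs in all 11 libraries, and the other 9, Vim, Sparc and Pecam1 among them, had UMIs in at least 1. The part of stromal cells in the Wnt5a values was not tested. Wnt5a lies at chr14:28504750-28527448 and overlaps Gm2670 on the other strand, and the call held in 3 of the 11 analyses without 1 library (Old 1, Old 3 or Old 5).

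Parp3 encodes a poly(ADP-ribose) polymerase family member that acts in DNA break repair. It was at 3.12, 5.06, 3.10, 2.48 and 2.41 CPM in Young 1 to 5 and at 5.42 to 9.74 CPM in the old mice (median 7.24). Young 2 lay just under the lowest old mouse, and the groups did not overlap. The log2 change was 1.25 ± 0.19 (adjusted p = 0.0497), just inside the threshold, and the call held without Young 2 or without Old 3 and in no other analysis that left out 1 library. Parp3 lies at chr9:106470322-106476949 on the minus strand and overlaps Rrp9 on the other strand, and the counting is not stated to use strand.

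**Figure D1:**
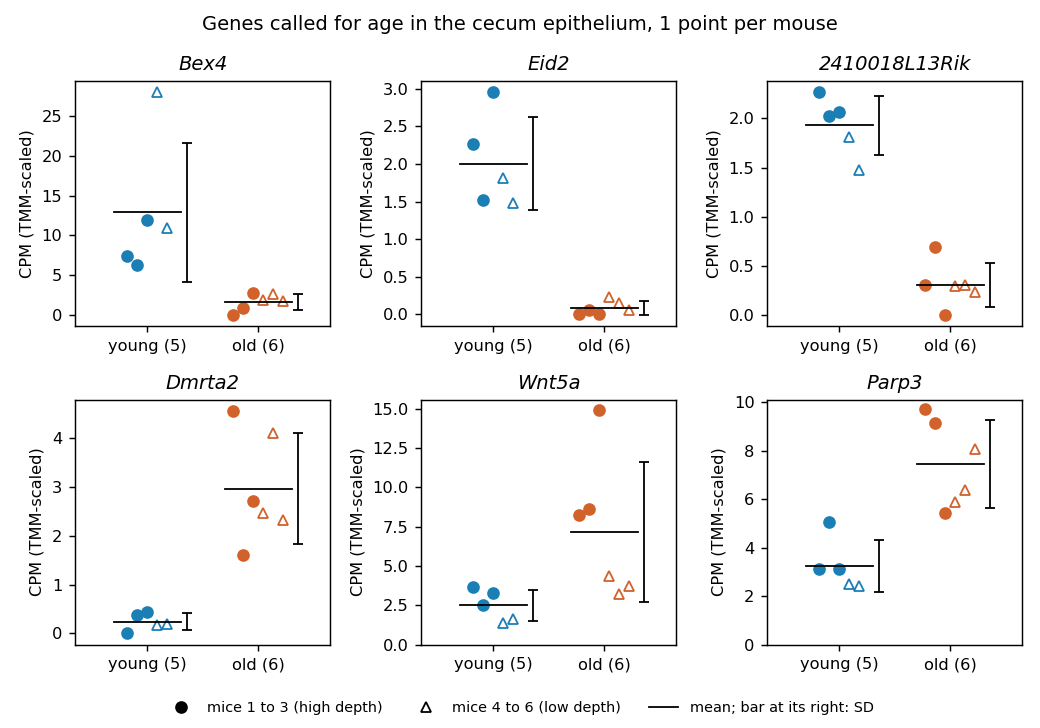
CPM (y axis, linear) of the 6 genes called for age in the cecum, with 1 point per mouse for 5 young and 6 old mice, filled circles for mice 1 to 3 and open triangles for mice 4 to 6. Lines are group means and bars SDs. Old mice lie below all young mice for Bex4, Eid2 and 2410018L13Rik and above them for Dmrta2 and Parp3, while for Wnt5a Old 5 lies within the young range.

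The promoters of the 3 genes with the largest changes among the 6 called genes are shown because their old and young mice did not overlap, with 2 genes lower and 1 higher in old mice, and they differ in CG content. Each runs from 250 bases before to 50 after the start of the gene (RefSeq, GRCm38.p6), and capitals mark each CG, which reads the same on both strands. The windows are chrX:136138746-136139045 (plus strand) for Bex4, chr7:28267631-28267930 (plus strand) for Eid2 and chr4:109977775-109978074 (plus strand) for Dmrta2.
Bex4: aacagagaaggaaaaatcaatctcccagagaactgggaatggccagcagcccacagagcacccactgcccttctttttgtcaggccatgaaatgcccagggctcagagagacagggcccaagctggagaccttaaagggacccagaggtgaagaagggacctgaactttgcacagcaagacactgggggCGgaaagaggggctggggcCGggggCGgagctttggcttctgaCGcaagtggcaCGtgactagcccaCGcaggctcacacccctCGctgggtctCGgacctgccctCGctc
Eid2: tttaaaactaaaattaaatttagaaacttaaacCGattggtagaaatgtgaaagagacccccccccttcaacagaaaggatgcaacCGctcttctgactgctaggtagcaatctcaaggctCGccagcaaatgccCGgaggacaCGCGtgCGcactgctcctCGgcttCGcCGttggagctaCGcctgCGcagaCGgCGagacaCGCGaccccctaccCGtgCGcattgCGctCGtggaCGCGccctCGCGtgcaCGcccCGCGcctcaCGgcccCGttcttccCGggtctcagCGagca
Dmrta2: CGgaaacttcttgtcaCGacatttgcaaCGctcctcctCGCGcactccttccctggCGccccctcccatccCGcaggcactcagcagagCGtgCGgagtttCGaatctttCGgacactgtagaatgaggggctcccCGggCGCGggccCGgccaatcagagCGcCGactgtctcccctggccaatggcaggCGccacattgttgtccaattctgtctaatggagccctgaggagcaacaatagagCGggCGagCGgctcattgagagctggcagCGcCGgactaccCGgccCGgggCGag
The Bex4 window holds 9 CGs, a number that 45.8% of all 32851 promoter windows reach. Eid2 holds 31 (10.6% of windows hold as many or more) and Dmrta2 holds 26 (16.9%), against a median of 7. The window of 2410018L13Rik holds 31 and that of Parp3 holds 16, so genes lower and genes higher in old cecum both included CG-rich promoters. Of the 6 called genes, 5 had an entry.

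Bex4 was the 1 member of any of the 29 gene lists that was called. The Bex and Tceal genes are neighbours on the X chromosome and encode small adaptor-like proteins. All 7 tested members of this family, Bex4 included, had a lower estimate in old cecum, from −3.11 to −0.02 on the log2 scale. Of these, 5 including Bex4 were at an unadjusted p below 0.05 (background 1.73% of all genes in that direction). Bex4 shares sequence with Bex1, and Young 4 was the highest young mouse for Bex4, Bex1, Bex3 and Tceal8. The members are thus not independent, and their count is no separate support for the Bex4 call. The median log2 change was −0.60 beside 0.00 over all genes. Bex1 was at 11.3 to 46.5 CPM in young and 9.44 to 25.8 CPM in old mice (log2 −0.91 ± 0.29, adjusted p = 0.869), and Tceal8 at 16.6 to 58.7 and 9.97 to 25.1 CPM (−1.05 ± 0.32, adjusted p = 0.786). The groups overlapped for both. Tceal9, the most abundant member, was at 250.7 ± 89.6 CPM (SD, n = 5) in young and 258.5 ± 81.0 CPM (SD, n = 6) in old mice. Its mean was thus slightly higher in old mice, and its log2 change ran from −0.14 to 0.09 over the alternatives run.

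S100g encodes calbindin-D9k, which carries calcium through absorptive cells and is a target of the vitamin D receptor. It was at 4.53, 10.5, 6.65, 266 and 69.0 CPM in Young 1 to 5 and at 3.65 to 21.9 CPM in the old mice (median 12.6). The 2 young mice of the shallower set were high, the 3 young mice of the deeper set lay within the old range. On the log2 scale the change was −2.06 ± 0.62 (unadjusted p = 0.0058, adjusted p = 0.777), at −0.10 in the deeper and −3.32 in the shallower set, and the difference between the sets had an adjusted p of 1.00 (unadjusted p = 0.00423). Fabp6, a gene of ileal enterocytes, was at 12.5, 41.9, 191, 253 and 162 CPM in Young 1 to 5 and at 11.5 to 364 CPM in the old mice. The 15 ileal markers together were at 747 CPM (Young 5) to 2101 CPM (Young 4) in young and 915 to 3691 CPM in old libraries. S100g had no call either when immune and ileal cells were removed, and the part of ileal cells in its values was not otherwise tested. The other 9 tested genes of the calcium and vitamin D list had no call, and Cldn15, a claudin that forms ion pores, was at 277.3 ± 11.8 CPM (SD, n = 5) in young and 266.9 ± 28.3 CPM (SD, n = 6) in old mice.

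The interaction test asked whether any age difference differed between the deeper and the shallower set. edgeR called 0 of 12049 genes (284 at an unadjusted p below 0.05), and it called 0 genes in each of the 13 alternatives run. With 6 mice in the deeper and 5 in the shallower set, this test can detect only large differences. The lack of calls therefore does not show that the sets agree. The genes called for age had within-set log2 changes of the same sign in both sets. They were chosen by a test over the same mice that favours genes alike in both sets, so the shared sign is no separate support.

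**Figure D2:**
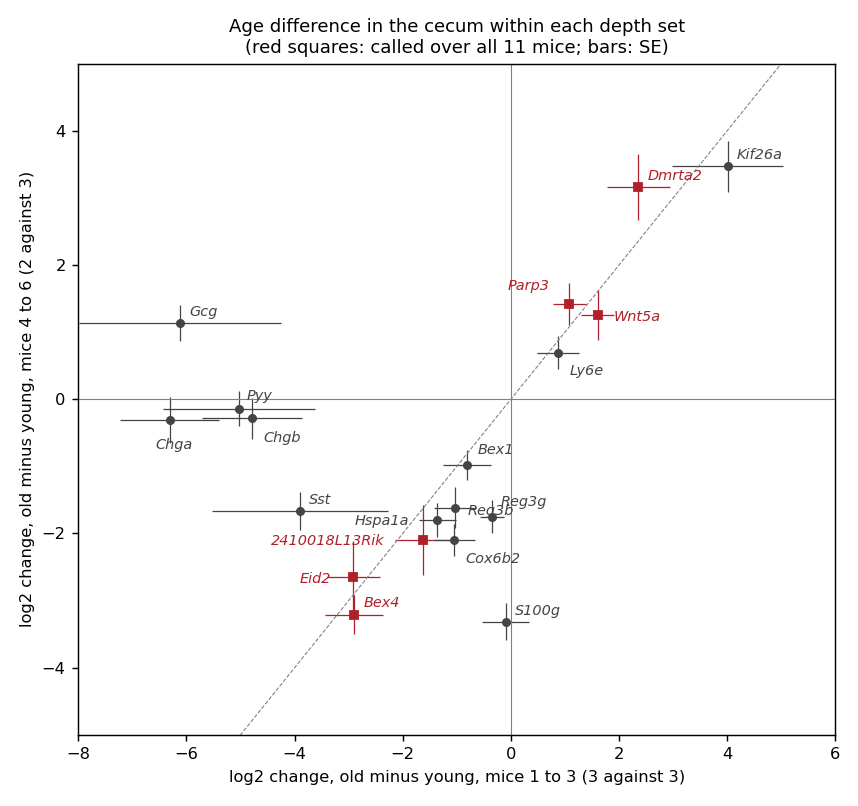
Log2 change from young to old in mice 1 to 3 (x axis) against that in mice 4 to 6 (y axis), with SE bars and a dashed line of equality. The 6 called genes (red squares) lie near the line, S100g is near 0 on the x axis and at −3.32 on the y axis, and the enteroendocrine genes Chga, Chgb and Pyy are near 0 on the y axis only.

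Genes of mucosal defence encode proteins that kill or repel bacteria near the epithelium. None of the 15 tested members was called, and the median log2 change was −0.03. Of the 15, 4 had an unadjusted p below 0.05, with 2 higher and 2 lower (2.05% and 1.73% over all genes). Reg3g, a lectin against Gram-positive bacteria, was at 18.99, 29.9, 32.8, 294 and 255 CPM in Young 1 to 5 and at 19.2 to 105 CPM in old mice (median 33.3). Its log2 change was −1.05 ± 0.29 (adjusted p = 0.571), with −0.35 in the deeper and −1.75 in the shallower set. Its neighbour Reg3b was at 21.0 to 562 CPM in young and 6.78 to 277 CPM in old mice (−1.33 ± 0.47, adjusted p = 1.00). Both were high in the 2 young mice of the shallower set, as S100g was. Ang4, an antimicrobial ribonuclease, reached 2849 CPM in Old 5 and 6.65 to 136 CPM in the other old mice, against 0.759 to 126 CPM in young mice.

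Interferon-response genes, which cells switch on against viruses, had no call among 18 tested members. At an unadjusted p below 0.05 there were 5, with 1 higher and 4 lower (2.05% and 1.73% over all genes). Of these 18, 15 had a lower estimate in old mice, and the median log2 change was −0.33 beside 0.00 over all genes. Isg15, a ubiquitin-like protein, was at 3.42 to 20.9 CPM in young and 0.678 to 13.7 CPM in old mice (−1.04 ± 0.32, adjusted p = 0.786). Ly6e, a surface protein, was at 93.5 to 261 CPM in young and 153 to 397 CPM in old mice (0.80 ± 0.28, adjusted p = 1.00), opposite to most of the list. Antigen presentation genes of MHC class II had 6 of 7 estimates lower, a median of −0.59 and no call (1 at an unadjusted p below 0.05). H2-Ab1 was at 11.3 to 27.2 CPM in young and 0.678 to 30.0 CPM in old mice, the old mice of the deeper set being lowest, and Cd74 reached 67.8 CPM in Old 5. The summed level of 15 immune-cell markers was 2.08 to 9.07 CPM in young and 1.09 to 20.4 CPM in old libraries, with Ptprc at 0.469 to 5.39 and 0.115 to 9.49 CPM. H2-Ab1 and Cd74 had no call either when immune and ileal cells were removed, and the part of immune cells in these values was not otherwise tested. For MHC class I the 14 tested members had a median of −0.08, and B2m, its shared light chain, was at 479.2 ± 271.9 CPM (SD, n = 5) in young and 558.4 ± 339.1 CPM (SD, n = 6) in old mice.

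Genes that respond to heat and to tissue dissociation had 21 of 22 estimates lower in old mice and no call, with a median of −0.27 beside 0.00 over all genes. Of the 22, 2 were lower at an unadjusted p below 0.05 (background 1.73% of all genes in that direction). Hspa1a encodes an inducible HSP70 chaperone. It stood at 252, 102, 210, 234 and 220 CPM in Young 1 to 5 and at 37.7 to 117 CPM in old mice (median 54.2). Young 2 alone lay within the old range. With age it differed by a log2 change of −1.56 ± 0.33 (adjusted p = 0.174), at −1.36 in the deeper and −1.80 in the shallower set, and DESeq2 gave an adjusted p of 0.000679 where the other alternatives ran from 0.0115 to 1.00. Hspa1a has a near-identical neighbour, Hspa1b, so its reads may be split. Hspa1b held 963, 977, 1190, 527 and 623 UMIs in Young 1 to 5. In Old 1 to 6 it held 243, 2329, 115, 1262, 145 and 215 UMIs. In the shallower set Old 4 was above both young mice for Hspa1b, from a library of fewer total UMIs, unlike for Hspa1a. Hspa8, a constitutive chaperone, was at 2460 ± 372 CPM (SD, n = 5) in young and 2121 ± 523 CPM (SD, n = 6) in old mice.

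**Figure D3:**
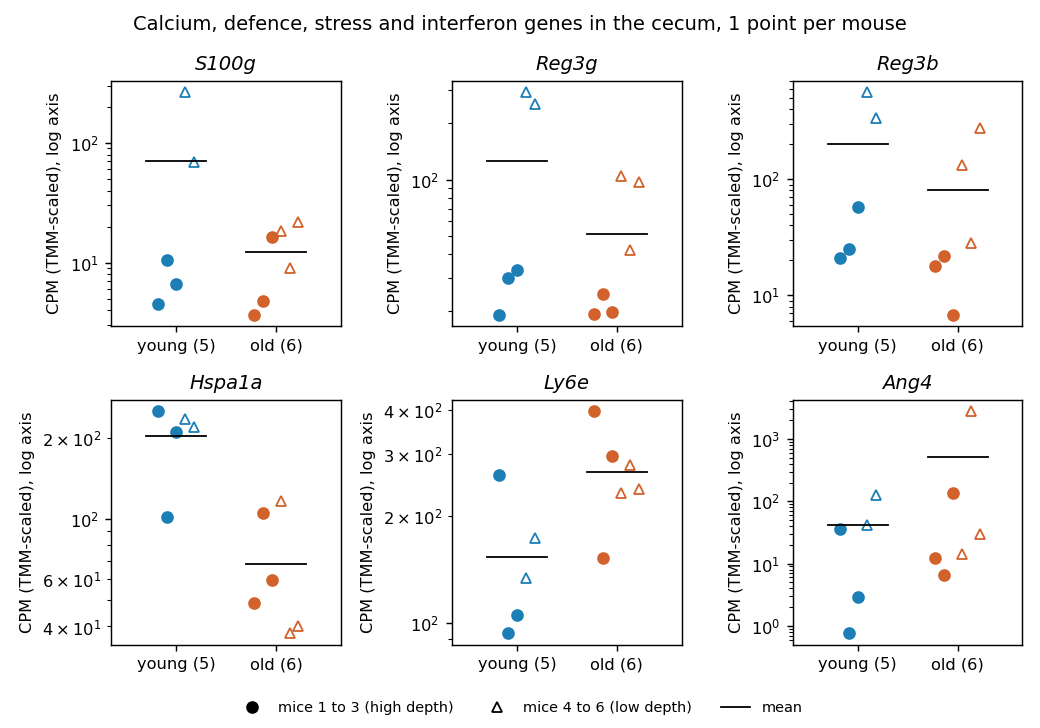
CPM (y axis, log scale) of S100g, Reg3g, Reg3b, Hspa1a, Ly6e and Ang4, with 1 point per mouse, filled circles for mice 1 to 3, open triangles for mice 4 to 6 and lines for group means. S100g, Reg3g and Reg3b are highest in the 2 young mice of the shallower set, and Ang4 is highest in Old 5.

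Enteroendocrine cells release gut hormones, and of the 10 cell-type lists theirs spread most between libraries, from 14.2 to 1750 CPM. None of 13 tested markers was called, 12 had a lower estimate in old mice and 4 an unadjusted p below 0.05 (background 1.73% of all genes in that direction), with a median of −1.81. Summed over the 15 markers, Young 1 to 5 were at 579, 123, 1750, 988 and 317 CPM, Old 1 to 3 at 52.7, 14.2 and 15.6 CPM, and Old 4 to 6 at 300, 989 and 485 CPM. The deeper set's old mice lay below all young mice, and in the shallower set the groups overlapped, so the median was −3.90 in the deeper and −0.28 in the shallower set. Chga, a granule protein of endocrine cells, was at 20.7 to 204 CPM in young and 0.287 to 183 CPM in old mice (−2.93 ± 1.34, adjusted p = 1.00). Pyy, a hormone of L cells, was at 0.379 to 431 and 2.74 to 213 CPM, and Gcg, the glucagon-like peptide gene, reached 637 CPM in Young 3. Sst, somatostatin, was highest in Young 1 at 112 CPM. Libraries of 46 to 76 cells (Old 3, Young 1 and Old 1) hold few cells of a rare type, and Old 2, with 511 cells, had the lowest sum of all. Old 2 was also the lowest library for goblet-cell (2267 CPM), tuft-cell (14.3 CPM) and deep crypt secretory and Paneth-cell markers (379 CPM).

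The other cell types had no call among the genes tested, and from 0 to 2 genes per list had an unadjusted p below 0.05. Over all genes 3.78% passed that threshold, and the median log2 change was 0.00. Goblet-cell markers, with 15 tested, had a median of 0.01, and their sum ran from 3593 to 53351 CPM in young and from 2267 to 47048 CPM in old mice, lowest in Young 2 and Old 2. Colonocyte markers had a median of 0.28 over 14 tested members, at −0.09 in the deeper and 0.65 in the shallower set. Car1, a carbonic anhydrase of surface cells, was at 11379 ± 4673 CPM (SD, n = 5) in young and 16031 ± 10041 CPM (SD, n = 6) in old mice. Stem-cell markers had a median of −0.01 over 14 members and summed to 466 to 775 CPM in young and 422 to 943 CPM in old mice. Cycling-cell markers had a median of −0.11 over 15 members, and tuft-cell markers one of 0.01 over 14. Deep crypt secretory and Paneth-cell markers had 10 of 11 estimates lower and a median of −0.69. Within the sets their median was −0.02 in the deeper and −0.85 in the shallower set. Mmp7, a protease that activates defensins, was at 0.253 to 33.5 CPM in young and 0.516 to 8.81 CPM in old mice.

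**Figure D4:**
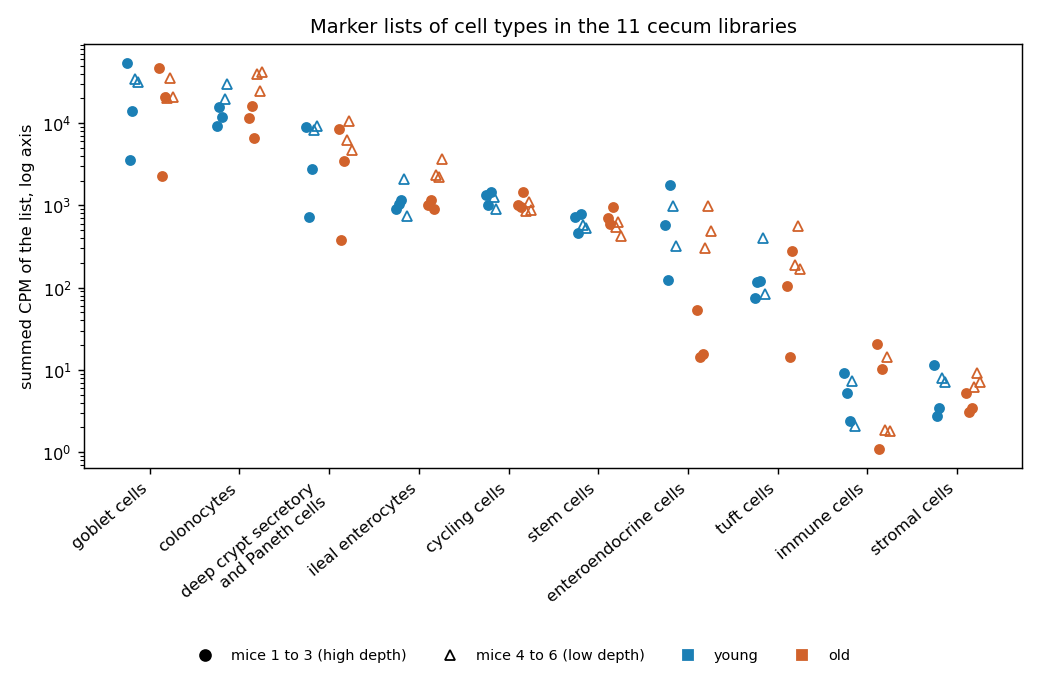
Summed CPM (y axis, log scale) of 10 lists of cell-type markers in the 11 cecum libraries, 1 point each, young in blue and old in orange, filled circles for mice 1 to 3 and open triangles for mice 4 to 6. Enteroendocrine markers of Old 1 to 3 lie between 14.2 and 52.7 CPM, below the young libraries, and goblet markers are lowest in Young 2 and Old 2.

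The lists of pathways often studied in ageing tissue had no called member either, Wnt5a not being on the Wnt list, which holds target and feedback genes, and each of these lists had 0 or 1 gene at an unadjusted p below 0.05. The share over all genes was 3.78%, and the median log2 change over all genes was 0.00. Of 18 tested senescence and p53 genes, 15 had a lower estimate, with a median of −0.12, and Cdkn1a, the p21 cell-cycle inhibitor, was at 132.7 ± 85.7 CPM (SD, n = 5) in young and 121.9 ± 81.5 CPM (SD, n = 6) in old mice. Wnt signalling genes had a median of −0.01 over 14 members and Notch genes one of −0.08 over 13. Hes1, a Notch target, was at 92.5 ± 14.1 CPM (SD, n = 5) in young and 97.4 ± 26.4 CPM (SD, n = 6) in old mice, and Sox9, a progenitor factor under Wnt control, at 83.4 ± 16.3 and 84.7 ± 31.7 CPM. Fatty acid oxidation and ketogenesis had a median of −0.11 over 20 members. Oxidative phosphorylation had a median of −0.10 over 24 members. Among them Cox6b2, the testis-type form of a cytochrome oxidase subunit, was at 10.2, 12.6, 15.7, 31.8 and 23.1 CPM in Young 1 to 5 and 2.13 to 11.5 CPM in old mice (−1.61 ± 0.28, adjusted p = 0.0632). The unfolded protein response had a median of −0.14 over 16 members, tight junctions one of 0.01 over 15, circadian clock genes one of 0.02 over 15 and regional identity genes one of 0.05 over 17. Cdx2, a factor of intestinal identity, was at 328.8 ± 55.1 CPM (SD, n = 5) in young and 345.2 ± 49.2 CPM (SD, n = 6) in old mice. Ion and water transport had a median of 0.07 over 20 members, glutathione and xenobiotic genes one of 0.12 over 20 and imprinted genes one of −0.06 over 9.

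Whether age differences were larger or smaller in the cecum than in the colon was tested across the 3 libraries of each mouse, with the mouse as a block, so this test shares its cecum libraries with the comparison above. The smallest colon libraries were the proximal ones of Young 2 (18 cells), Old 1 (47 cells) and Young 1 (49 cells). Of 12630 genes, 6 differed (0.0475%), with 1040 at an unadjusted p below 0.05. None was among the genes called for age in the cecum, whose adjusted p-values here ran from 0.157 (Bex4) to 0.965 (Wnt5a). Dmrta2 was at 0.15 ± 0.14 CPM (SD, n = 5) in young and 4.20 ± 3.12 CPM (SD, n = 6) in old proximal colon, and at 0.11 ± 0.21 and 2.88 ± 1.48 CPM in distal colon. Bex4 was at 12.0 ± 8.16 and 3.19 ± 0.88 CPM in proximal and at 23.4 ± 10.8 and 9.58 ± 4.25 CPM in distal colon. Wnt5a was at 4.82 ± 3.20 and 5.99 ± 2.20 CPM in proximal colon, where the ages overlapped, and at 0.084 ± 0.143 and 0.24 ± 0.19 CPM in distal colon.

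Vsig2, an immunoglobulin-domain protein, was at 167.5 ± 58.2 CPM (SD, n = 5) in young and 214.6 ± 59.0 CPM (SD, n = 6) in old cecum. In proximal colon it was at 54.3 ± 31.3 and 142.5 ± 43.8 CPM, and in distal colon at 33.8 ± 14.4 and 110.6 ± 44.7 CPM. The age difference in the cecum minus that in the colon was −1.20 ± 0.18 on the log2 scale (adjusted p = 0.00713), and Vsig2 was called with each mouse left out. Apob, the scaffold of lipoprotein particles, went the same way, with 32.3 ± 16.8 CPM (SD, n = 5) in young and 35.0 ± 12.4 CPM (SD, n = 6) in old cecum, 13.3 ± 6.64 and 39.8 ± 20.1 CPM in proximal colon and 13.1 ± 2.74 and 31.4 ± 8.79 CPM in distal colon (−1.13 ± 0.21, adjusted p = 0.0368). Its call held in 2 of 11 analyses that left out a mouse (Young 5 or Old 2), and was lost when only libraries of at least 50 cells were used.

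Creg1, a secreted lysosomal glycoprotein, was at 96.5 ± 16.4 CPM (SD, n = 5) in young and 125.3 ± 20.2 CPM (SD, n = 6) in old cecum, at 94.5 ± 24.1 and 96.3 ± 23.9 CPM in proximal colon and at 79.8 ± 13.8 and 72.2 ± 16.1 CPM in distal colon. The difference was 0.45 ± 0.07 (adjusted p = 0.00713), lost without Young 4. Ceacam20, an adhesion molecule of the brush border, differed by 1.36 ± 0.21 (adjusted p = 0.00713), a call lost without Old 4. It was at 4.05 ± 3.48 and 7.66 ± 6.83 CPM in young and old cecum and at 19.9 ± 14.2 and 12.5 ± 11.6 CPM in distal colon. In proximal colon it was at 0.533 to 25.7 CPM in young and 3.69 to 23.2 CPM in old mice. Slc39a4, the zinc importer ZIP4, differed by 0.74 ± 0.13 (adjusted p = 0.0256) and held in 5 of 11 such analyses (Young 1, Young 5, Old 1, Old 2 or Old 3 left out). It was at 26.4 to 75.3 CPM in young and 18.4 to 95.1 CPM in old cecum. The ranges were 32.3 to 99.97 and 23.6 to 69.6 CPM in proximal colon, and 29.8 to 77.8 and 16.1 to 58.6 CPM in distal colon. Ppy, pancreatic polypeptide, differed by −4.43 ± 0.76 (adjusted p = 0.0228), with 486 CPM in the distal colon of Old 5, 201 CPM in Old 4 and 0 to 4.94 CPM in every cecum library. The Ppy call was lost without Young 5, Old 4 or Old 5.

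**Figure D5:**
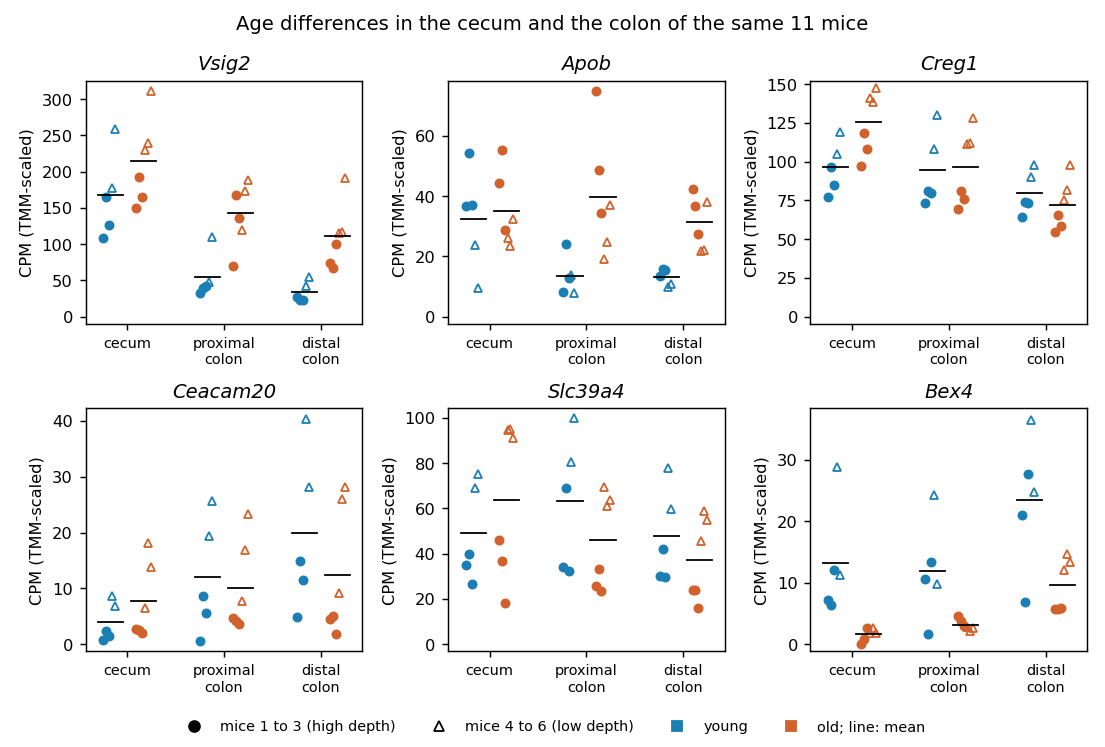
CPM (y axis, linear) of Vsig2, Apob, Creg1, Ceacam20, Slc39a4 and Bex4 in cecum, proximal and distal colon of the same 11 mice, young in blue and old in orange, filled circles for mice 1 to 3, open triangles for mice 4 to 6 and lines for means. Young Vsig2 is at 167.5 CPM in cecum against 54.3 and 33.8 CPM in the colon, and old Bex4 is below young Bex4 on average in all 3 compartments.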

How the data were processed

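The authors deposited 1 table of UMI counts per library, genes by cells, with no normalization. Per the submitters' processing notes they used Cell Ranger and the mm10 build, and the version, the annotation and the use of strand are not given in the sources used here. Every deposited cell had over 1000 genes and under 15% mitochondrial UMIs, doublets were not called or removed here, and free RNA was not corrected for.

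UMIs were summed per library over all cells. Depth per library was 1395412 to 18955289 UMIs over 21852 genes in the files, and low-count genes are the least precise. edgeR 4.0.16 (R 4.3.3) was used with TMM factors, its own filter on low counts (11793 genes kept), a prior count of 2 and the quasi-likelihood F test of age with the depth set as a term, 2-sided. Calls were at a Benjamini-Hochberg adjusted p below 0.05. SEs are the log2 change, which the prior count shrinks, divided by the square root of F. They are therefore approximate, above all for genes of low counts. CPM are scaled by TMM, and CPM of genes outside the filter use the same factors. Within-set values are from fits to the 6 deeper and the 5 shallower libraries. Values across compartments are scaled over all 33 libraries together. DESeq2 1.42.0 and limma 3.58.1 were alternatives, beside other scalings, no filter, other depth terms, each cell weighted equally, immune or ileal cells removed, and libraries left out. The age test was tried first on counts simulated from its own model and the dispersions of these libraries. This does not show how the test performs on the real counts. The replicate is the mouse, with 1 library each.

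Named genes are all called genes, up to 2 of highest CPM in each of 19 pathway lists, S100g, and the called genes of the cecum against colon test. Further genes, such as the enteroendocrine and Reg3 genes, were chosen after their values were seen, and 1 gene that the rule names is not reported here. The members, lists and tests were chosen with earlier results of these data known. Mouse numbers were not taken as pairs of old and young mice, and the 3 libraries of 1 mouse share the mouse. Positions are from GENCODE M21 and promoters from RefSeq.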

Additional observations from a re-analysis of the deposited data

Results flagged for a closer look

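In 14 of 148 groups of 5 or 6 mice, 1 mouse lay far from the rest of its group. The cutoff passes about 1 in 20 groups of independent, normally distributed values. CPM need not meet this, the groups mix both depth sets, and some genes were chosen after their values were seen. The 14 of 148 is therefore not read as an excess. Among young mice, Young 4 was highest for Bex4 (28.0 CPM), S100g (266 CPM), Hspa8 (3121 CPM) and Bex3 (136 CPM). Young 5 was highest for Ppy (4.76 CPM), Young 3 for Gcg (637 CPM), Young 1 for Sst (112 CPM) and Young 2 for Parp3 (5.06 CPM), and Young 2 was lowest for Hspa1a (102 CPM). Among old mice, Old 5 was highest for Ang4 (2849 CPM), Cd74 (67.8 CPM) and Tph1 (70.7 CPM), Old 6 for Ifi27l2b (119 CPM) and Old 4 for Dnajb1 (155 CPM).

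The age difference in the cecum differed from that in the colon, by the test of the difference itself, for Vsig2 (−1.20 on the log2 scale), Ceacam20 (1.36), Creg1 (0.45), Slc39a4 (0.74), Apob (−1.13) and Ppy (−4.43).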

How the results depend on the processing

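The count of 6 genes called for age was 47 with DESeq2 (27 higher, 20 lower), 17 with limma voom (10 and 7), 28 without a filter on low counts (15 and 13), 5 with DESeq2's size factors (2 and 3) and 7 without immune and ileal cells. It was 1 without a depth term (174 genes at an unadjusted p below 0.05), 3 with depth per cell as a number, 2 with cells weighted equally, and 0 in edgeR within mice 1 to 3 alone (161 at an unadjusted p below 0.05) and within mice 4 to 6 alone (567). Leaving out 1 library gave 0 to 9 calls. With a replicate block on the mouse number the count was 4 (Bex4, Ceacam10, Scgb2b20 and Kif26a), of which Bex4 is 1 of the original 6. The deviations of same-numbered old and young mice correlated at 0.49, 0.54 and 0.15 for numbers 1 to 3 and at −0.05 and −0.18 for numbers 4 and 5. Since not every number did, the numbers were not taken as pairs. As a hint from the data only, numbers 1 to 3 correlated best with their own number and numbers 4 and 5 did not. Without Young 1, Old 1 and Old 3, the libraries under 100 cells, an analysis chosen after seeing the data, the count was 4, with 1 of the original 6 genes (Bex4).

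The cecum against colon count of 6 was 27 without a filter, 43 within mice 4 to 6 alone and 9 with only libraries of at least 50 cells. It was 2 to 11 with 1 mouse left out, falling to 3 without Young 4, 2 without Old 4 and 3 without Old 5, and rising to 11 without Old 3. None of the 6 called genes of either test changed sign under any alternative run. Of 65 other genes followed, 4 passed the threshold under at least 1 alternative (Clic6, Cox6b2, Hspa1a and Kif26a), and 32 changed sign under some alternative, none with a call. The cause of these shifts was not tested. Libraries of 46 to 76 cells limit what rare cell types can show, and Eid2, Dmrta2 and 2410018L13Rik rest on few UMIs per library.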

Other observations

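Of the 41 genes whose old and young mice did not overlap in CPM (0.348% of those tested), 5 were called and 36 were not. The acetylcholinesterase gene Ache was at 2.55 ± 0.98 CPM (SD, n = 5) in young and 5.62 ± 1.05 CPM (SD, n = 6) in old mice (log2 1.26 ± 0.20, adjusted p = 0.0564). Kcnk10, a potassium channel gene, was at 0.80 ± 0.32 and 2.33 ± 0.66 CPM (1.43 ± 0.23, adjusted p = 0.0564). Clic6, of the chloride intracellular channel family, was at 9.25 ± 3.04 and 3.56 ± 0.60 CPM (−1.37 ± 0.22, adjusted p = 0.0564). Kremen2, a receptor for the Wnt inhibitors of the Dickkopf family, was at 11.6 ± 3.74 and 3.96 ± 1.86 CPM (−1.59 ± 0.28, adjusted p = 0.0632). Celf2, an RNA-binding protein gene, was at 3.76 ± 1.00 and 1.20 ± 0.48 CPM (−1.48 ± 0.25, adjusted p = 0.0632). These 5 genes were chosen after their values were seen, and none of them was called.

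Kif26a, a kinesin family gene, was at 0.126 to 0.871 CPM in young mice and at 21.9, 0.458, 6.78, 6.65, 11.6 and 7.07 CPM in Old 1 to 6 (log2 3.72 ± 0.74, adjusted p = 0.136). Old 2 alone lay within the young range. Kif26a was called under 4 alternatives, which were DESeq2, no filter on low counts, a block on the mouse number, and edgeR without Old 2. limma voom and DESeq2 called 16 genes in common, all 6 of the genes called by edgeR among them.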
